A study of Mus musculus with 4 samples.

Results

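The 10 genes described here, Dazl, Ddx4, Sycp3, Sycp1, Hormad1, Mael, Asz1, Stra8, Brdt and Stk31, act in germ cells and are known to be kept silent in the cells of the body. They were taken by name from a list of germline-restricted genes, with earlier results of these data known, out of 21418 autosomal protein-coding genes in the annotation used. Their DNA methylation was read by whole-genome bisulfite sequencing (WGBS), in which unmethylated cytosines are converted and read as T while methylated ones are still read as C. A call is the reading of a CpG cytosine in a sequenced fragment, and a methylation level is the methylated calls in percent of all calls.

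DNA came from the colon of mice labelled as C57, offspring of Lgr5-EGFP-CreER knock-in and wild-type C57 parents, and no group was treated. Intestinal stem cells (ISCs) were the Lgr5-EGFP+ cells, and differentiated cells were EpCAM+ and Lgr5-EGFP-, each sorted on the day of birth (P0) and on postnatal day 21 (P21), which gave 4 groups. Every group was 1 library from pooled mice, so that no difference could be set against a spread between animals, and the tests below compare libraries, not conditions. EGFP was driven by the endogenous Lgr5 regulatory sequences, and the reporter-negative gate takes any EpCAM+ cell that is not a reporter-positive stem cell. By the study's methods, litters of this cross were pooled at P0 and Lgr5-EGFP+ offspring at P21. Whether P0 pups without the reporter were left out is not stated. Stem cells of such pups would fall in the reporter-negative gate. Genotype makeup may therefore differ between the ages, and between the populations at P0. The libraries held 1023427645 to 1188114423 calls, with a median of 16 to 25 calls at a covered CpG. RNA was not measured in these libraries, so silence of the genes is background knowledge and not a result. Of the labelled cell type only promoters could be checked. Those of the epithelial genes Epcam, Cdh1, Vil1, Krt8 and Cdx2 were below 2% in each library, and that of Lgr5 was between 0.681% and 5.34%. Of other cell types, the promoters of the immune genes Ptprc and Cd3e were between 72.5% and 89.2%, those of the endothelial genes Pecam1 and Cdh5 were between 48.7% and 75.5%, and those of the mesenchymal genes Col1a2 and Vim were below 4%.

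Most CpG-rich promoters are free of methylation in every tissue, whether or not the gene is expressed. Promoters of a set of germline genes are a known exception: they gain methylation in the embryo around implantation, keep it in somatic cells, and lose it again in primordial germ cells, in which the genes become active. Before the methylation is laid down, a non-canonical Polycomb complex that holds the E-box binding proteins MGA and MAX and the factor E2F6 is known to sit at many of these promoters.

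The promoters of all 10 genes were methylated in all 4 libraries. Within 500 bp to either side of the annotated start, the level of every gene was above 50% in each library. At or above 80% in all 4 were 6 of the 10 genes, against 13.2% of all tested promoters. Values for the libraries are given throughout in the order P0 ISCs, P0 differentiated cells, P21 ISCs, P21 differentiated cells. The median over the 10 genes was 89.3%, 87.3%, 90.6% and 89.1%. The median over 20660 tested promoters of autosomal protein-coding genes was 3.94%, 2.61%, 3.99% and 2.78%. Upstream of the promoter, out to 5 kb, the members' medians were 83.9% to 84.8% against 72.6% to 73.7% over all genes, and over the gene bodies they were 79.02% to 81.1% against 77.4% to 78.7%. The genes therefore stood apart from the average gene at the start and much less in the flank and the body. Each promoter window rested on 433 to 2960 calls per library. The intervals given below are 95% Wilson intervals and account for the counting of calls alone. CpGs read on the same fragment were counted as separate calls, in the intervals and in the tests. Such calls need not be independent, so in CpG-rich windows the intervals can be too narrow and the p-values too small. The reads were amplified by PCR and carry no molecular identifiers.

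**Figure D1:**
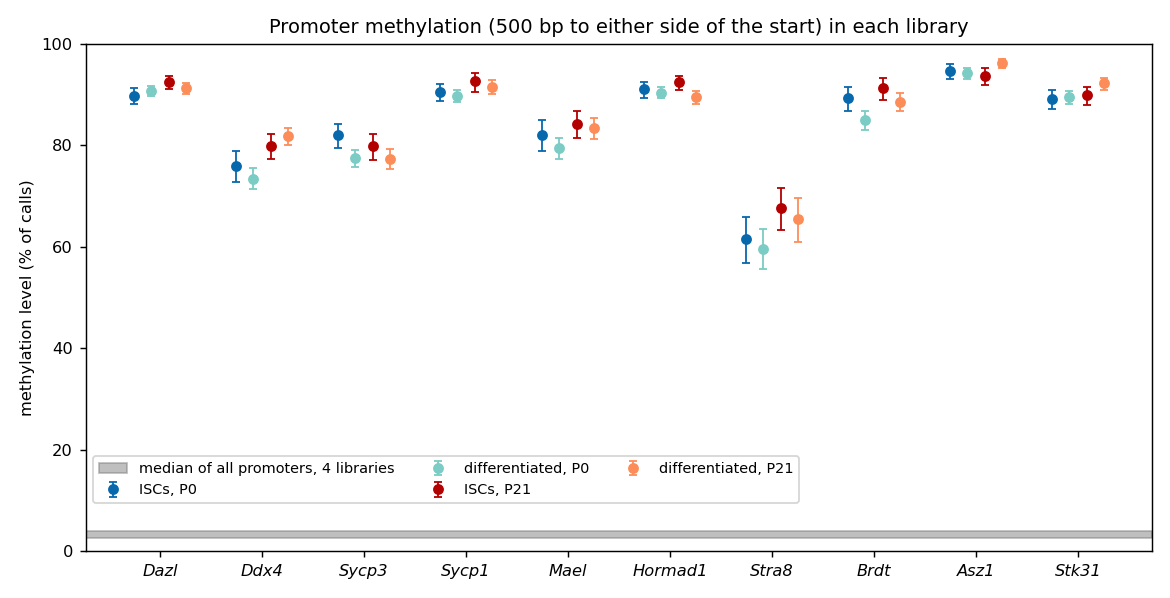
Promoter methylation level (vertical axis, percent of calls) of the 10 germline genes (horizontal axis) in the 4 libraries, with 95% Wilson intervals as bars. All points except those of Stra8 lie above 70%, while the grey band near the bottom is the range of the median over all promoters, 2.61% to 3.99%.

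Dazl, an RNA-binding regulator of translation in germ cells, is on the minus strand of chromosome 17 (ENSMUSG00000010592.7, chr17:50418719-50432924, mm9). Its promoter held 72 CpGs, with levels of 89.8%, 90.8%, 92.5% and 91.3%. Ddx4, the mouse homologue of the RNA helicase Vasa and a widely used germ cell marker, is on the minus strand of chromosome 13 (ENSMUSG00000021758.7, chr13:113388541-113442518). Its promoter had the most CpGs of the 10, 77, and stood at 76.0%, 73.4%, 79.96% and 81.8%.

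Sycp3, Sycp1 and Hormad1 encode proteins of the chromosome axis and the synaptonemal complex, the structure that joins homologous chromosomes in meiosis. Sycp3 (ENSMUSG00000020059.3, chr10:87922314-87935981, plus strand) lies within the annotated span of Chpt1 on the other strand, and its 46 promoter CpGs were at 82.0%, 77.5%, 79.8% and 77.4%. Sycp1 (ENSMUSG00000027855.8, chr3:102622422-102740023, minus strand), which forms the transverse filaments of the complex, had 65 promoter CpGs at 90.6%, 89.8%, 92.7% and 91.6%. Hormad1 (ENSMUSG00000028109.8, chr3:95363599-95391593, plus strand), an axis protein that monitors pairing, had 47 at 91.0%, 90.4%, 92.4% and 89.5%. Sycp3 was thus lower than its partners in each library, with intervals that did not overlap theirs.

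Mael and Asz1 act in the piRNA pathway, which silences transposons in germ cells. Mael (ENSMUSG00000040629.3, chr1:168131516-168168875, minus strand) had 61 promoter CpGs at 82.1%, 79.4%, 84.3% and 83.4%. Asz1 (ENSMUSG00000010796.5, chr6:18000964-18059061, minus strand) had 38 at 94.7%, 94.3%, 93.7% and 96.3%, the highest level of the 10 genes in each library. At single CpGs with at least 20 calls over the 4 libraries, the lowest in the Asz1 promoter was still at 87.8%.

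Stra8, Brdt and Stk31 are a gatekeeper of entry into meiosis that answers to retinoic acid, a testis-specific bromodomain protein that reads acetylated histones, and a kinase-like protein with a Tudor domain. The Brdt promoter (ENSMUSG00000029279.9, chr5:107760178-107816077, plus strand) had 41 CpGs at 89.4%, 85.0%, 91.3% and 88.6%. The Stk31 promoter (ENSMUSG00000023403.8, chr6:49345603-49419500, plus strand) had 59 at 89.2%, 89.5%, 89.9% and 92.3%. Stra8 (ENSMUSG00000029848.4, chr6:34870163-34889342, plus strand) had only 14 CpGs around the start of its longest coding transcript, at 61.4%, 59.6%, 67.6% and 65.4%, the lowest level of the 10 genes in each library.

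The low value of Stra8 came from a short stretch at that start. The 200-bp bin that covers the start had 6 CpGs at 26.5% [20.6, 33.4], 30.9% [25.9, 36.3], 40.8% [34.1, 47.9] and 44.3% [37.8, 51.1], and its lowest CpG, 62 bp upstream of the start, was at 12.2% over the 4 libraries. The 41 CpGs from 638 to 1437 bp downstream were at 93.1% to 95.2%. RefSeq places the start of Stra8 785 bp further downstream, inside this methylated stretch. Around the RefSeq start, an alternative chosen after the data were seen, Stra8 had 30 CpGs at 94.1%, 92.6%, 94.8% and 93.0%, and 7 of the 10 genes were then at or above 80% in all 4 libraries. The sequence upstream of the GENCODE start (chr6:34870001-34870162, mm9, plus strand, 5′ to 3′) shows how few CpGs, in capitals, that start has.
Stra8: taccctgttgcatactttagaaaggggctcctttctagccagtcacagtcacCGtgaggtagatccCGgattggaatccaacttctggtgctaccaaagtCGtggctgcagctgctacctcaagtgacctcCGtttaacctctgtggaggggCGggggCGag

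Ordered by level, Asz1 came first and Stra8 last in every library. Below Asz1 stood Sycp1, Dazl, Hormad1, Stk31 and Brdt, whose order changed between libraries, and then Mael above Sycp3 and Ddx4. Sycp3 was above Ddx4 in both P0 libraries and below it in both P21 libraries, and their intervals overlapped in P21 ISCs only. Such levels were rare among promoters so rich in CpGs. Among 7090 tested promoters with 40 to 79 CpGs, 96.8% were below 20% in all 4 libraries and 45 (0.635%) were at or above 80% in all 4. Of the 8 members in that range, 5 were among the 45 (Dazl, Sycp1, Hormad1, Brdt and Stk31). A further 9 of the 45 were in the wider list of germline genes described below, for example Spo11, which cuts DNA to start meiotic recombination, and the meiotic genes Tex12 and Msh4. Among promoters with 10 to 19 CpGs, the range of Stra8 at its GENCODE start, 32.9% were at or above 80% in all 4 libraries and 9.91% were below 20%.

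**Figure D2:**
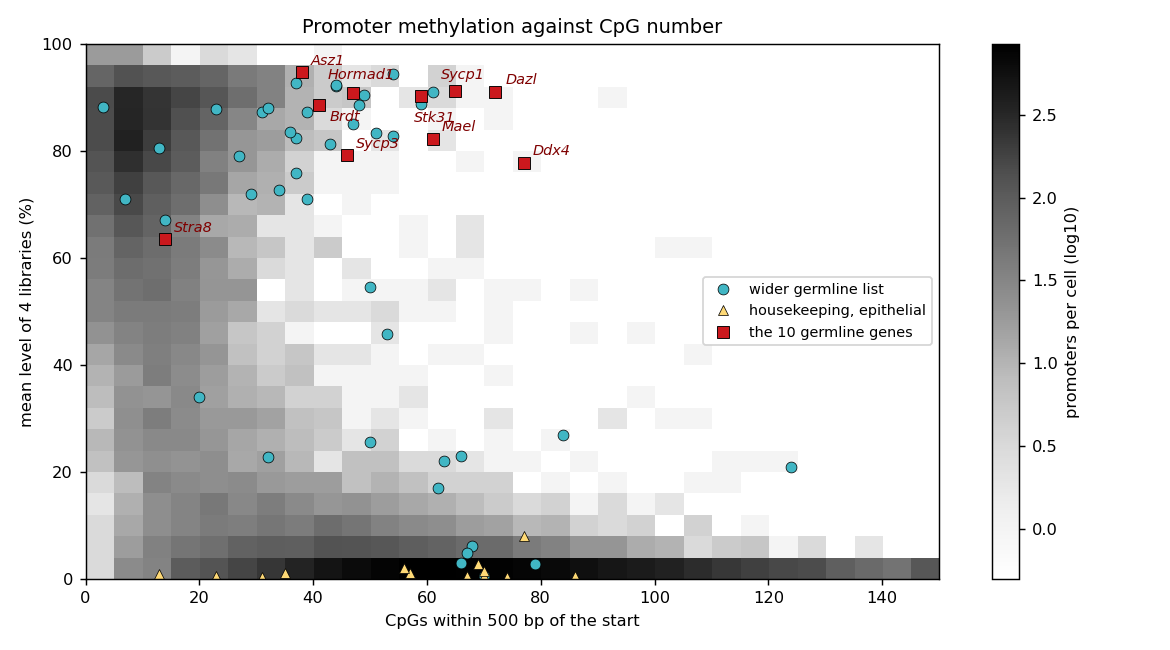
Mean promoter level over the 4 libraries (vertical axis, percent) against the number of CpGs within 500 bp of the start (horizontal axis; promoters of 145 or more share the last column). Grey cells give the number of promoters on a log10 scale, red squares the 10 germline genes, circles the wider germline list, and triangles the housekeeping and epithelial genes, which lie at the bottom while 9 of the red squares lie above 70% at 38 or more CpGs.

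A wider list of 43 germline genes, of which 42 could be tested, was less uniform. Its median promoter level was 75.4%, 76.1%, 79.3% and 77.8%, 17 genes were at or above 80% in all 4 libraries, and 5 (Syce2, Msh5, Hfm1, Tdrkh and Ddx25) were below 20% in all 4. Of all tested promoters, 13.2% were at or above 80% and 61.4% were below 20% in all 4 libraries. Among 9 genes of the chromosome axis and synapsis, the mean over the libraries ran from 6.16% in Syce2 to 83.4% in Sycp2, and the cohesin genes Rec8, Stag3 and Smc1b were at 22.8%, 22.9% and 22.0%. Among 8 genes of meiotic recombination it ran from 0.523% in Msh5, a MutS homologue, to 90.5% in Spo11, with the recombinase gene Dmc1 at 16.9%, Mei1 at 25.5%, the helicase gene Hfm1 at 2.76% and Prdm9, the histone methyltransferase that places recombination hotspots, at 34.0%. Among 13 genes of the piRNA pathway and germ granules it ran from 2.90% in the helicase gene Ddx25 to 92.6% in Tex19.1, with Tdrkh at 4.85%, Tdrd6 at 26.8% and Tdrd1 at 45.8%. Among 12 tested germ cell regulators and others it ran from 21.0% in Boll, a relative of Dazl, to 94.3% in Rpl10l, and Tex14, which keeps the bridges between germ cells open, was at 54.6%. No promoter of the list was called in any of the 4 comparisons described below, where 2.46%, 2.27%, 0.992% and 0.828% of all promoters were. By the adjusted p alone, 11, 14, 7 and 5 of the 42 passed (26.2%, 33.3%, 16.7% and 11.9%, against 10.3%, 13.2%, 12.9% and 10.9% of all promoters). Among those that passed, the largest differences were 14.5 points in Tdrd1 with age in differentiated cells (adjusted p 2.69e-18, Fisher's exact test) and, for differentiated cells minus ISCs at P0, -13.97 points in Mei1, 12.4 points in Nanos2 and -12.0 points in Boll (adjusted p 3.27e-11, 0.0383 and 6.18e-15, Fisher's exact test). The shares by adjusted p were set against all promoters, most of which were low in all 4 libraries, unlike the list. A share among promoters of like level was not computed, so a higher share cannot be read as a trait of germline genes. Of the relatives of Brdt that act in all cells, the Brd2 promoter was between 0.571% and 0.817% and the Brd3 promoter between 0% and 0.564%, while Brdt was at 85.0% or more in each library. The 7 housekeeping genes had medians of 0.654% to 1.03%.

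The methylated stretch at the start was not equally wide in all members. In Dazl it ended inside the first intron. The 62 CpGs from 476 bp upstream to 323 bp downstream of the start were at 92.2% [90.6, 93.5], 94.8% [93.8, 95.5], 95.5% [94.4, 96.5] and 94.7% [93.8, 95.5]. The next bin was at 51.8%, 49.9%, 43.0% and 43.4%, and the 47 CpGs from 524 to 923 bp downstream (chr17:50432001-50432400) were at 0.397% [0.0701, 2.21], 0.353% [0.151, 0.825], 0.180% [0.0318, 1.01] and 0.651% [0.316, 1.34]. Summed over the 4 libraries, the 6 CpGs from 336 to 451 bp downstream were between 64.1% and 90.3%, those at 470 and 480 bp were at 13.6% and 30.3%, and those from 492 to 517 bp were below 10%. The largest step was thus between the neighbouring CpGs at 451 and 470 bp. The bases across the change (chr17:50432401-50432580, mm9, minus strand, 5′ to 3′) are shown with CpGs in capitals, and the level falls from the left to the right.
Dazl: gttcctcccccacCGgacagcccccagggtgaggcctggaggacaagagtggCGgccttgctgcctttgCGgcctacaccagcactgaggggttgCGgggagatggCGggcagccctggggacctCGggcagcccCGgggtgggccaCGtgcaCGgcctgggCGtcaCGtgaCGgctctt

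The unmethylated stretch holds the annotated start of a shorter protein-coding transcript of Dazl (ENSMUST00000170440.1), 707 bp downstream of the start used here. It made up a different share of the body's calls in each library, 42.6%, 85.4%, 64.6% and 82.3% for the first 623 bp of the body, and the body level of Dazl, at 42.9%, 11.6%, 23.5% and 11.99%, moved with that share. The rest of the body was at 74.2%, 75.6%, 66.0% and 63.7%. With a window of 1000 bp to either side, which takes in the stretch, the Dazl promoter stood at 79.4%, 63.8%, 70.7% and 66.9%.

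Brdt had a similar unmethylated stretch far from its start. From 28223 to 28822 bp downstream (chr5:107788401-107789000), over exons 11 to 13, 38 CpGs were at 0.601% [0.205, 1.75], 0.381% [0.148, 0.976], 0.477% [0.131, 1.72] and 1.35% [0.735, 2.47]. An annotated transcript of Brdt without a coding sequence (ENSMUST00000162804.1) starts within it, 28678 bp downstream. Of the 671 tested bins of the 10 genes, 9 (1.34%) were below 20% in all 4 libraries, against 5.15% of all tested bins, and 6 of the 9 were in or next to these stretches of Dazl and Brdt. The others were a bin centred at -3062 bp from the start of Stra8, a bin over exon 6 of Asz1 and an intron bin of Stk31, with 3 CpGs each. At the other end, 50.4% of the members' tested bins and 48.0% of all tested bins were at or above 80% in all 4 libraries.

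Bins of low or intermediate level also lay near other starts. The bin centred at -1014 bp from the start of Sycp3 was at 19.6%, 14.1%, 18.5% and 23.1%, with 2 CpGs, while the promoter beside it was at 77.4% or more. The bin centred at -1644 bp from the start of Asz1 was at 22.0%, 22.7%, 45.7% and 26.1%, on 22 to 41 calls. The bin 1722 bp downstream of the start of Brdt, in an intron, was at 52.4%, 44.9%, 50.6% and 38.1%.

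**Figure D3:**
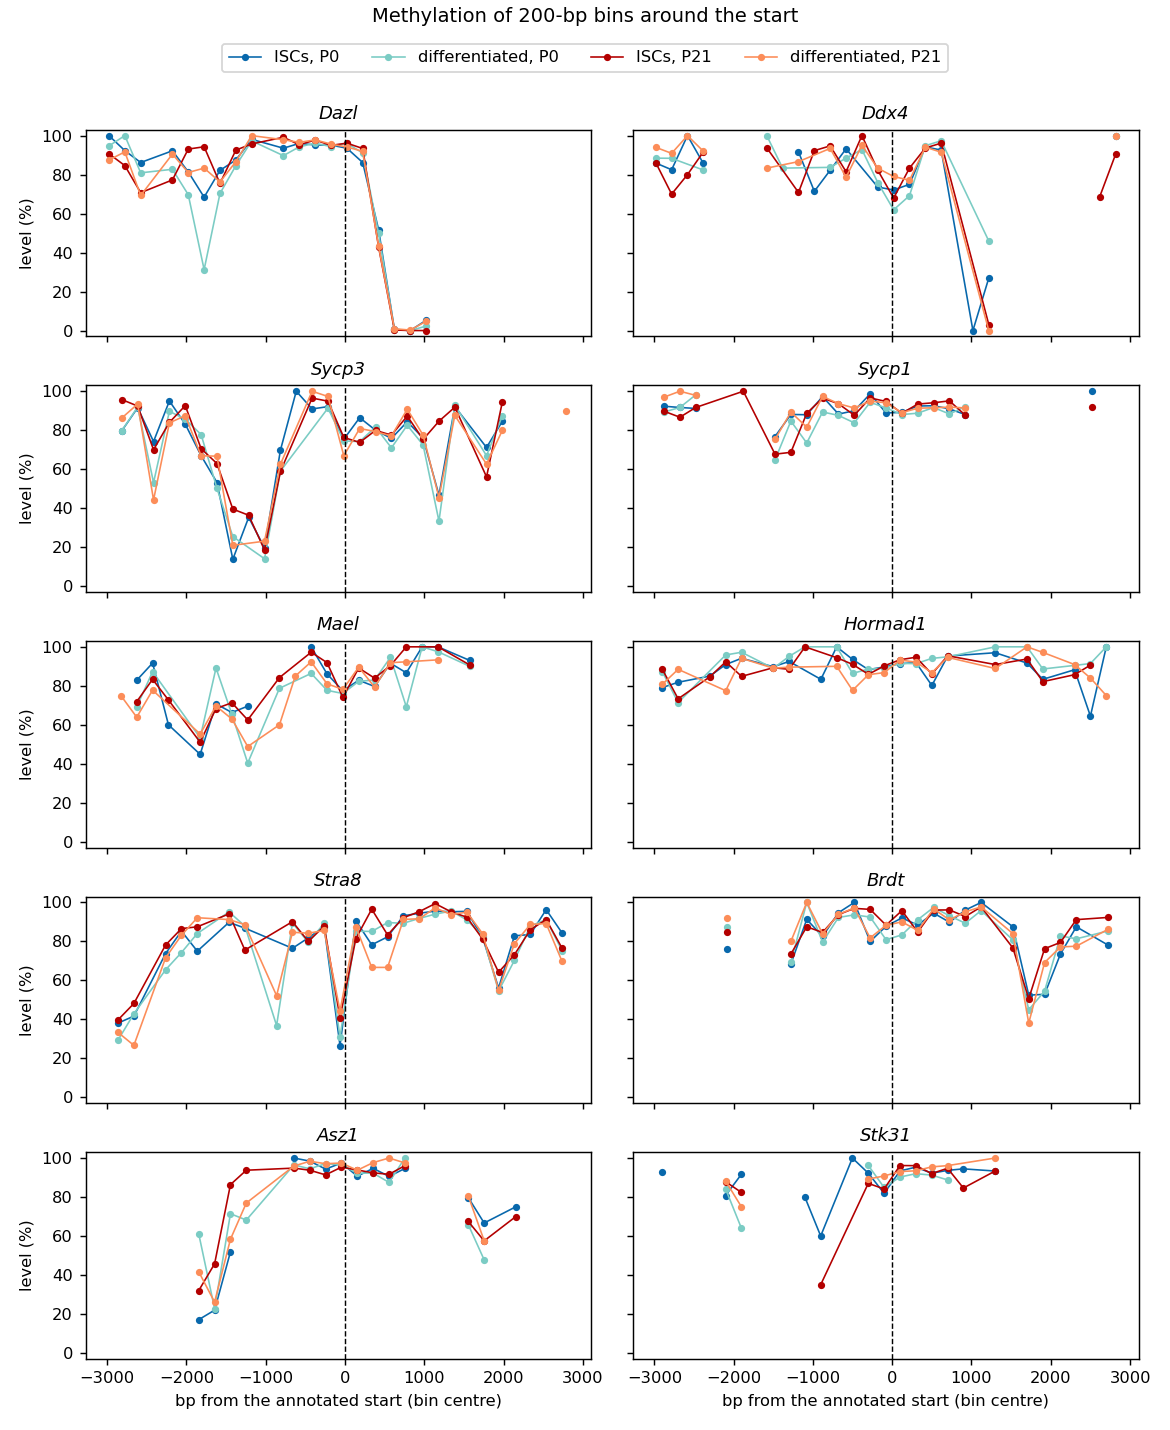
Methylation level (vertical axes, percent) of 200-bp bins with at least 10 calls against the distance of the bin centre from the annotated start (horizontal axes, bp; negative is upstream), for the 10 germline genes in the 4 libraries. Lines stop at gaps of more than 600 bp. The 4 libraries take a similar course across the start, marked by the dashed line. Dazl drops from 92.2% or more, summed over the methylated bins at its start, to below 1% within its first intron.

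Within the promoters, the CpG inside the hexamer CACGTG, the E-box bound by MGA and MAX, was lower than its surroundings. The motif occurred in the 300 bases from 250 bp before to 50 bp after the start in 7 of the 10 genes, searched on both strands with every match counted, against 7.76% of all 21418 promoters and 10.5% of 12257 with 7 to 38 CpGs, the range of the members. The E2F-type motif GCGGGA occurred in 5 of the 10, against 25.5% and 36.1%. A match is a description of the letters and was not tested for binding. The 150 bases before the outermost annotated start beside the one used here are shown for 5 members whose E-box CpG was among the 3 lowest of the promoter, with CACGTG in capitals (mm9, 5′ to 3′ of the gene: chr10:87922164-87922313, chr3:95363449-95363598, chr5:107760028-107760177 and chr6:49345453-49345602 on the plus strand, and chr13:113442519-113442668 on the minus strand).
Sycp3: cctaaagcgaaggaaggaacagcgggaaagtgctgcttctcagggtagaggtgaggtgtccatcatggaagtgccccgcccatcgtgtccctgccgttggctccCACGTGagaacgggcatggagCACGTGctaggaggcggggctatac
Hormad1: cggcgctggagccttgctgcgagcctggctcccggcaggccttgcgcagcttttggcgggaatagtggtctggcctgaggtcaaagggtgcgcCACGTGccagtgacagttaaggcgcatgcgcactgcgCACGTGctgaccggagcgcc
Brdt: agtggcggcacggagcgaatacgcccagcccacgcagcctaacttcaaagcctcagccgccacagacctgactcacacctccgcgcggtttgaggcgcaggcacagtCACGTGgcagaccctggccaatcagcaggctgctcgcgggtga
Stk31: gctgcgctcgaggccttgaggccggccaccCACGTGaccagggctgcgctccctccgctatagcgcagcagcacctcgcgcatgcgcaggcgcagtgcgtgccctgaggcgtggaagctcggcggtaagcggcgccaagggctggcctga
Ddx4: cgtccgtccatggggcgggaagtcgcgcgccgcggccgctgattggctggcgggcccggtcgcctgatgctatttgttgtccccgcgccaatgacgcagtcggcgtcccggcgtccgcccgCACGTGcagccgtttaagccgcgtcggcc

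Within 500 bp of the start there were 12 CpGs in CACGTG, in 9 of the 10 genes, and none at Stra8. Summed over these CpGs, the level was 65.5%, 60.3%, 63.8% and 63.6%, against 87.1%, 86.1%, 88.3% and 88.2% for the 500 promoter CpGs in neither motif. The 8 CpGs in GCGGGA were at 90.9%, 86.8%, 90.6% and 91.2%. Compared with up to 4 nearest other CpGs, the E-box CpG was lower in 11, 12, 9 and 11 of the 12 cases in the 4 libraries, and in all 12 when the libraries were summed, with a median difference of -25.3 points. In Sycp3 the CpGs at -44 and -23 bp from the start were the lowest of the promoter, at 36.0% [29.01, 43.7] and 45.7% [38.2, 53.4] beside neighbours at 69.03% and 81.7%. In Hormad1 the CpGs at -56 and -19 bp were the lowest, at 62.3% [54.2, 69.8] and 67.7% [60.2, 74.3] beside 93.2% and 91.8%. The E-box CpG was at 63.9% beside 91.2% in Brdt, at 50% beside 76.4% in Ddx4, at 67.1% beside 82.1% in Stk31 and at 52.8% beside 95.1% in Mael. In Sycp1 the CpG at -91 bp was at 82.1% beside 91.5%. At Asz1 (90.2% beside 93.3%) and at the more distant motif of Sycp1 (94.7% beside 95.7%) the gap was small. The E-box of Dazl within this window lies at the edge of its unmethylated stretch, 492 bp downstream, where the neighbours were low as well. The Dazl bases shown above hold a further CACGTG outside the window, whose CpG at 512 bp was at 0% over the 4 libraries. These values rest on 36 to 193 calls per CpG over the 4 libraries, fewest in Mael, and no test was made.

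A lower E-box CpG was not particular to the 10 genes. Of 280 other promoters at or above 80% in all 4 libraries that held the motif, its CpGs were lower than the rest of the promoter in 215 (76.8%), with a median difference of -7.14 points. Among those with 40 to 79 CpGs the median was -24.9 points in 5 members, all of them lower, and -19.9 points in 13 other promoters, of which 12 were lower. Genes of the wider germline list were not left out of the other promoters, and their number among the 13 was not counted. When all CpGs of these CpG-rich promoters were grouped by the 2 bases on either side, CACGTG had the lowest median of the 86 hexamers with at least 10 CpGs, 70.1% over 26 CpGs (7 of them in members), against 92.9% over the other 2089 CpGs. Over all 2718 promoters at that level it ranked 4 from the lowest of 136 hexamers, at 82.1% against 91.6%.

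**Figure D4:**
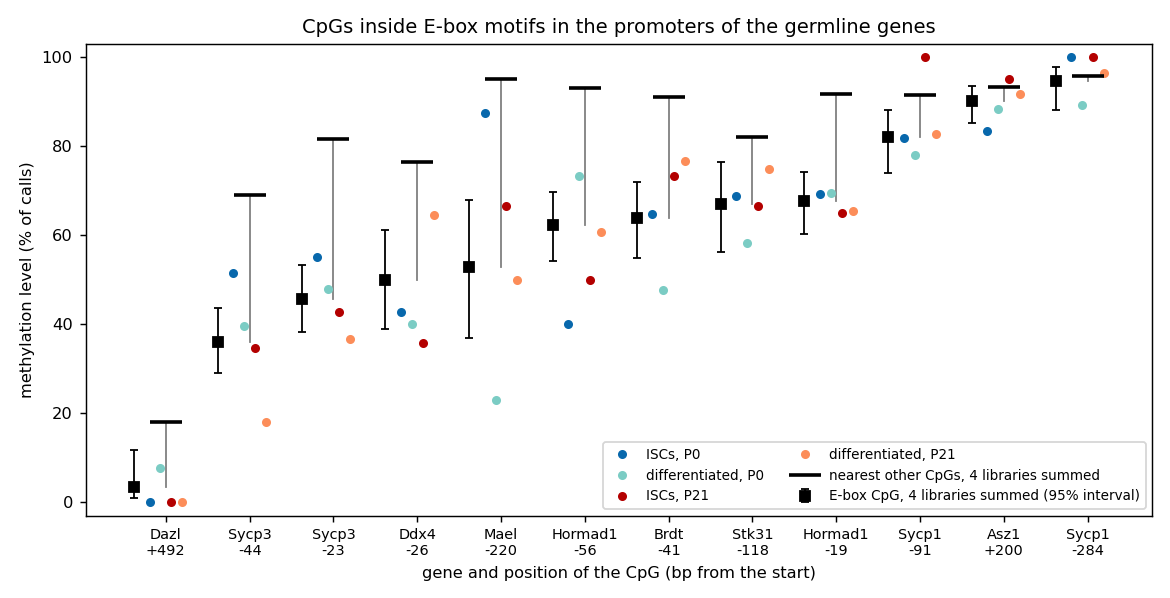
Methylation level (vertical axis, percent of calls) of the 12 CpGs inside E-box motifs within 500 bp of the start of the germline genes (horizontal axis, gene and position in bp). Coloured points are the 4 libraries, squares their sum with 95% Wilson intervals, and horizontal bars the nearest other CpGs summed over the libraries, which lie above the squares in all 12 cases.

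The question of the study was how methylation differs with age and with differentiation of the ISCs. None of the promoters of the 10 genes differed by more than 15 points in any of the 4 comparisons, and smaller differences are described below. A promoter was called when Fisher's exact test on the calls of 2 libraries gave an adjusted p below 0.05 over all 20660 promoters and the levels differed by more than 15 points. Of the 10 members 0 were called in each of the 4 comparisons, where 2.46% (P21 against P0 in ISCs), 2.27% (P21 against P0 in differentiated cells), 0.992% (differentiated cells against ISCs at P0) and 0.828% (the same at P21) of all promoters were. With 10 members, a count of 0 is near these shares and does not set the members apart. By the adjusted p alone, 0, 2, 1 and 2 members passed, against 10.3%, 13.2%, 12.9% and 10.9% of all promoters. With age, the Ddx4 promoter rose by 8.35 points (95% interval 5.66 to 11.04, adjusted p 7.48e-08, Fisher's exact test) and the Stk31 promoter by 2.74 points (0.987 to 4.50, adjusted p 0.0234, Fisher's exact test) in differentiated cells. The rise of Ddx4 was unequal between the strands, from 76.4% to 80.5% on the plus strand and from 70.7% to 82.6% on the minus strand. Differentiated minus ISC levels were -4.45 points for Sycp3 at P0 (-7.33 to -1.58, adjusted p 0.0319, Fisher's exact test), and at P21 -2.92 points for Hormad1 and 2.57 points for Asz1 (adjusted p 0.0420 and 0.0483, Fisher's exact test). The difference of Sycp3 was seen on the plus strand alone, at 77.5% in differentiated cells against 82.6% in ISCs. On the minus strand, with only 257 and 122 calls, the levels were 77.8% and 77.0%.

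Small differences leaned one way. From P0 to P21, 8 of the 10 promoters were higher in ISCs and 8 in differentiated cells, 7 of them in both, with medians of 2.02 and 2.38 points against 0.0351 and 0.0245 points over all promoters. Among the 2718 promoters at or above 80% in all 4 libraries, the medians were 0.0676 and 0.162 points, and 50.9% and 51.5% were higher at P21. The unadjusted interval of the change lay above 0 for 2 members in ISCs and 6 in differentiated cells, and its share over all promoters was not computed. The promoter windows held more calls in differentiated cells than in ISCs at each age, except Stra8 at P21. Stk31, for example, had 2233 and 1874 calls at P0 and P21 against 1060 and 1127. More calls narrow the interval, so these counts do not show a larger change in differentiated cells. By the adjusted p, 0 and 2 members passed, against 10.3% and 13.2% of all promoters. The largest changes were 6.14 points in Stra8 in ISCs, where the interval was -0.0740 to 12.4, and the 8.35 points of Ddx4. Between the populations, 8 members were lower in differentiated cells at P0 and 7 at P21, 6 of them at both ages, with medians of -1.32 and -1.15 points against -0.180 and -0.201 over all promoters. Among the 2718 high promoters they were -0.302 and -0.355 points, and 45.8% and 44.9% were higher in differentiated cells. The median at P21 turned to 0.253 points with 250 bp to either side of the start, and on the minus strand alone the medians with age were 1.03 and 1.16 points. Comparisons by age and by population use the same libraries and are no separate evidence. With 1 library a group these shifts of 1 to 2 points cannot be told apart from differences between libraries. By the study's methods mice were pooled by age, so that age also cannot be told apart from the pool, and no separate pools are described for the populations of an age.

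In the members' 200-bp bins, from 5 kb upstream to the gene end, 1604 bins held a CpG. Of these, 671 passed the minimum of 2 CpGs and of 10 calls per library, and they were tested among 4076373 bins of the genome. By the same rule as for promoters, 10 of the 671 were called with age in ISCs, 16 with age in differentiated cells, 3 between the populations at P0 and 3 at P21. These are 1.49%, 2.38%, 0.447% and 0.447% of the members' bins, against 2.56%, 2.86%, 0.508% and 0.182% of all tested bins, so only the last share was above its background, and by few bins. The 28 bins called in any comparison lay in 7 of the 10 genes, none in Dazl, Mael or Hormad1, with a median of 3 CpGs each. Of these, 26 lay in gene bodies, 1 upstream of Sycp3 and 1 in a promoter.

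The called promoter bin covers the start of Ddx4 (chr13:113442401-113442600, 25 CpGs, the most of any called bin), which includes the E-box shown above. It was at 72.1% [66.5, 77.1] in P0 ISCs, 61.9% [57.2, 66.5] in P0 differentiated cells, 68.0% [62.3, 73.1] in P21 ISCs and 79.03% [75.8, 82.0] in P21 differentiated cells. The differentiated cells therefore went from the lowest to the highest of the 4 levels, a rise of 17.1 points (adjusted p 3.08e-07, Fisher's exact test), while the ISC level changed by -4.16 points, which did not pass (adjusted p 0.809, Fisher's exact test). The changes in the populations differed by -21.3 points (ISCs minus differentiated cells, adjusted p 0.00774, Wald test), as did those of 0.518% of all tested bins. No member's whole promoter differed in this way, where 0.987% of all promoters did.

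Both populations lost methylation in 2 called bins. In the first intron of Ddx4, 1218 bp downstream of the start (chr13:113441201-113441400, 2 CpGs), the level went from 26.9% to 3.08% in ISCs and from 45.9% to 0% in differentiated cells, where 0 of 58 calls were methylated and a floor of 3 calls would be 5.17% (adjusted p 0.00505 and 1.03e-08, Fisher's exact test). In an intron of Brdt (chr5:107784001-107784200, 2 CpGs) it went from 57.3% to 18.2% and from 54.8% to 15.4% (adjusted p 0.000231 and 0.0261, Fisher's exact test). In both bins the levels at P21 were below those at P0 in both populations, and neither bin was called between the populations at either age.

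The remaining bins called with age were called in 1 population each. How many of all called bins were called in both populations was not computed, so this is not read as a difference between the populations. The bin upstream of Sycp3 (chr10:87920601-87920800, 4 CpGs, within the span of Chpt1) went from 50.2% to 66.7% in differentiated cells (adjusted p 0.0385, Fisher's exact test) and from 53.2% to 62.9% in ISCs, which was not called. Apart from this bin and the start of Ddx4, they lay in gene bodies. Counting all called bins, those lost in both populations included, 3 gained and 7 lost methylation in ISCs, and 6 gained and 10 lost it in differentiated cells. Losses also outnumbered gains over all tested bins, with 60336 against 43817 in ISCs and 75944 against 40447 in differentiated cells. The gains in ISCs were at exon 11 of Stk31 (chr6:49375601-49375800, 50% to 100%, 2 CpGs and only 15 to 18 calls), in an intron of Asz1 (chr6:18003201-18003400, 20.5% to 50%, 6 CpGs) and at exon 3 of Brdt (chr5:107771201-107771400, 64.8% to 90.9%). Adjacent bins over exon 5 of Asz1 (chr6:18027001-18027400, 7 CpGs together) lost methylation in ISCs, from 43.3% [31.6, 55.9] to 7.37% [3.61, 14.4], and stood at 29.9% [21.3, 40.2] and 22.9% [13.3, 36.5] in differentiated cells. A bin at exon 9 of Asz1 (chr6:18023601-18023800, 2 CpGs) went from 96.6% to 59.1% in ISCs. In differentiated cells a bin in an intron of Ddx4 (chr13:113401801-113402000) went from 81.4% to 37.0%, and a bin in an intron of Sycp1 (chr3:102672201-102672400) from 85.1% to 52.5%. The ISC levels of these bins were 93.0% and 75.9% in Ddx4 and 70% and 78.4% in Sycp1, neither of them a called change.

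Between the populations, the largest differences were in adjacent bins of an intron of Asz1 (chr6:18046001-18046400, 9 CpGs together). Together they were at 57.5% [49.6, 65.1], 52.8% [44.1, 61.3], 34.6% [27.1, 42.9] and 84.4% [76.4, 90.03]. The populations thus overlapped at P0 and were far apart at P21, and both bins were called there, with differences of 46.7 and 51.7 points (adjusted p 0.00203 and 1.24e-05, Fisher's exact test). The remaining bin called at P21 was in an intron of Ddx4 (chr13:113407201-113407400), at 84.1% in differentiated cells against 45.6% in ISCs. At P0 the 3 called bins, in Stk31 (chr6:49360401-49360600 and chr6:49408001-49408200) and over exon 4 of Stra8 (chr6:34880401-34880600), were all higher in differentiated cells, at 96.8%, 96.8% and 84.3% against 66.7%, 72.1% and 56.9% in ISCs. In all 3 the ISC level at P21 was higher, at 92.6%, 90.5% and 71.2%, and none was called at P21.

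**Figure D5:**
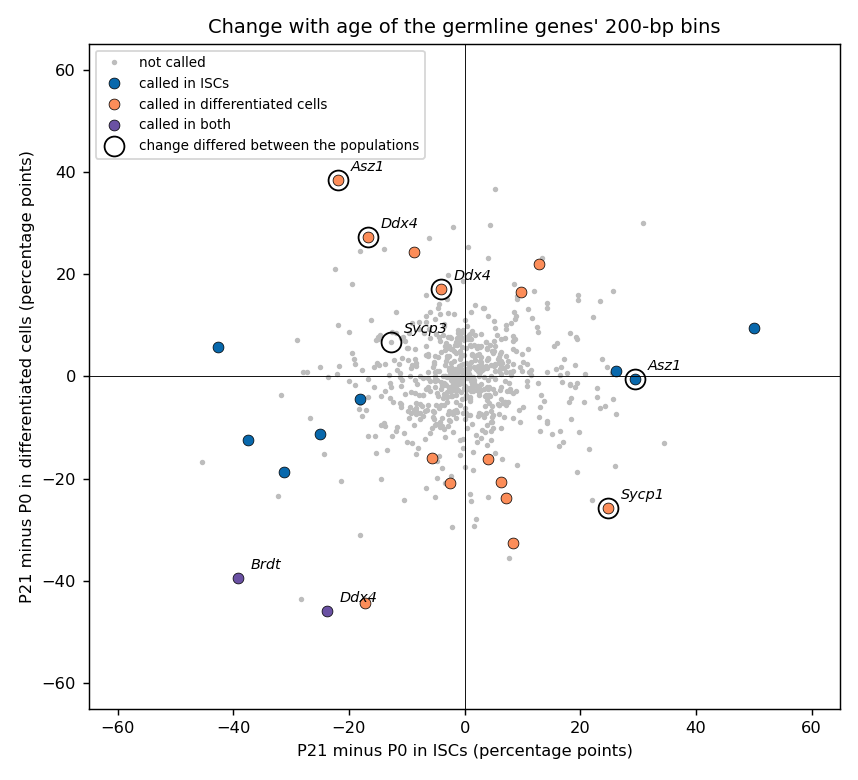
Change in methylation level from P0 to P21 in differentiated cells (vertical axis, percentage points) against that in ISCs (horizontal axis) for the 671 tested 200-bp bins of the germline genes. Filled coloured points were called in 1 population or in both, open circles mark 6 bins whose changes differed between the populations, and most bins lie in the grey cloud around 0.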

How the data were processed

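DNA of sorted cells was pooled from several mice for each of 4 groups, with 1 library per group, and groups were taken from the labels. Adaptor-ligated DNA was converted with bisulfite, amplified, sequenced in pairs and mapped by the authors to mm9 with Bismark (Bowtie is also listed in the submitters' processing notes). Their versions, and any removal of duplicates, were not given in the sources used here. Remaining duplicates would make counting intervals too narrow, as can CpGs of the same fragment counted as separate calls. The authors deposited, for each CpG cytosine, the count of calls and that of methylated calls. The deposited fraction was not used.

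Positions were matched to mm9 CpGs and both strands summed. Between 0.469% and 0.860% of the positions matched no CpG of the reference and were dropped. Levels were computed for 200-bp bins, following the study, and for GENCODE M1 windows around the start of the transcript with the longest coding sequence. Bins needed at least 2 CpGs and 10 calls in all 4 libraries, and promoters 10 calls. A two-sided Fisher's exact test was run on all features, with Benjamini-Hochberg adjustment; calls needed an adjusted p below 0.05 and more than 15 points. Changes with age were compared between populations by a Wald test with 0.5 added to each count. Promoter starts of RefSeq (GRCm38.p6), whose sequences matched mm9 exactly for all 10 genes, were an alternative. Printed sequences and motif searches used mm9. Python 3.11.15, numpy 2.4.6, scipy 1.17.1 and numba 0.67.0 were used. The genes, lists, motifs and most alternatives were chosen with earlier results of these data known, and named bins followed a rule (called bins, up to 5 per comparison by size; the lowest promoter bin); other stretches and single CpGs were chosen after their values were seen. On simulated data at the observed depth, 62.5% to 69% of 200 promoters changed by 20 points were recovered, and 12.5% to 27% of 200 bins changed by 30 points. The changed features had intermediate levels and no others were changed, which makes the adjusted p stricter than in the data, where many more were called. These shares therefore do not give the power for the members' bins, or for their promoters, most of which had high levels.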

Additional observations from a re-analysis of the deposited data

Results flagged for a closer look

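In 6 bins of the members the change with age differed between ISCs and differentiated cells, by a Wald test of the difference with an adjusted p below 0.05 over all tested bins and a difference of more than 15 points. These are 0.894% of the 671 tested bins of the members, against 0.518% of all tested bins. The test compares 4 libraries and not populations of mice. ISC minus differentiated change was -60.3 points in an intron of Asz1 (chr6:18046201-18046400), where ISCs went from 51.9% to 30% and differentiated cells from 43.2% to 81.7%. It was 50.5 points in an intron of Sycp1 (chr3:102697801-102698000), with 35.7% to 60.5% and 50% to 24.3%, and -44.0 points in an intron of Ddx4 (chr13:113407201-113407400), with 62.3% to 45.6% and 56.8% to 84.1%. It was 29.95 points in the intron bin of Asz1 at chr6:18003201-18003400, with 20.5% to 50% and 30.9% to 30.4%. At the start of Ddx4 (chr13:113442401-113442600) it was -21.3 points. In the bin after the start of Sycp3 (chr10:87922401-87922600, over exon 1, 13 CpGs) it was -19.4 points, where ISCs went from 86.4% to 73.7% and differentiated cells from 74.2% to 80.9%, and neither change was called there.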

How the results depend on the processing

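Counts of called bins depended on the settings. In the order ISCs with age, differentiated cells with age, populations at P0 and populations at P21, the counts of 10, 16, 3 and 3 became 101, 73, 71 and 75 with more than 15 points and no test (15.1%, 10.9%, 10.6% and 11.2% of the members' bins, against 13.5%, 12.1%, 10.6% and 9.53% of all bins). With more than 30 points the counts were 5, 5, 1 and 3, where 1.22%, 1.06%, 0.183% and 0.0729% of all bins were called. They were 4, 10, 2 and 3 of the 333 bins tested with at least 40 calls, where 3.95%, 4.11%, 0.831% and 0.328% of all bins were called. Of the 240 tested with at least 4 CpGs they were 4, 5, 0 and 3, where 4.16%, 4.05%, 1.02% and 0.497% of all bins were. By adjusted p alone they were 12, 26, 4 and 3, where 2.88%, 3.74%, 0.632% and 0.225% of all bins passed. At least 20 calls, shifted bins and leaving out cytosines above 1000 calls kept each count within 1.5 times. The promoter count of 0 became 2 (differentiated cells with age), 1 (populations at P0) and 2 (populations at P21) by adjusted p alone, and 1 at P0 (Dazl) with 1000 bp to either side of the start, a window that takes in the unmethylated stretch, which had 252 calls in ISCs and 1415 in differentiated cells.

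Shifts of the members' median promoter level were set against the median distance from a member's level to the end of its Wilson interval. This is not an error of the median itself. The median moved by more with 1000 bp to either side (86.7%, 84.9%, 87.6% and 86.9%) and with 250 bp in differentiated cells at P0 (85.2%). So it did with the RefSeq start in the same library (89.7%), a choice made after the data were seen. Over all 8 alternatives it stayed between 84.9% and 91.8%. The median difference of differentiated cells minus ISCs at P21 ranged from -2.47 to 0.253 points and changed sign with 250 bp to either side, while those with age ranged from 1.03 to 2.15 points in ISCs and from 1.16 to 2.97 points in differentiated cells. The wider list had 15 to 17 promoters at or above 80% in all 4 libraries over the windows tried, where 11.5% to 13.2% of all promoters were. With the level lowered to 70% it had 23, where 21.3% of all promoters were. Within a single comparison no pairing was possible because each had 1 library on either side, and no library could be left out of one for the same reason. A fit of age and population together over the 4 libraries was not run. At this depth 12.5% to 27% of simulated bins changed by 30 points were recovered, with only 200 bins of intermediate level changed, unlike the data.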
